A study of Mus musculus with 6 samples.

Results

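Immunoglobulin heavy and light chain probe sets were described across 6 one-colour microarrays of mouse leukemias driven by activated NOTCH1. The members are all probe sets, that is, groups of short probes designed against a common transcript, whose platform annotation holds at least 1 gene symbol spelled like a gene of the Igh, Igk or Igl loci, other than Ighmbp2 and Igll1. This rule, which used no measured value, took 57 of 45101 probe sets. Of these, 55 belong to an immunoglobulin chain locus, and 2 belong to Iglon5, a cell adhesion gene of neurons that matched by its spelling and is described apart. Of the 57, 44 carry 1 gene symbol and 13 carry several, because immunoglobulin segments resemble each other.

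The wild-type group (WT, 3 arrays) holds leukemias from C57BL6 donor marrow and the knockout group (KO, 3 arrays) leukemias from Sh2b3-/- donor marrow, with donors 8 weeks old in both; the labels give a strain for WT alone. Sh2b3 encodes LNK, an adaptor that restrains cytokine receptor signalling. In both groups lineage-negative marrow progenitors were infected with the MigR1-ΔE-Notch1 retrovirus, which carries NOTCH1 without its extracellular part, and Lin-Sca1+ cells were given to irradiated C57BL6 recipients, so that all arrays share the transgene and a wild-type host. The labels name no sorting step before RNA was taken from the tumours, so host cells can be in the samples. Of each RNA, 10 ng was amplified before labelling. The question behind the design is how the loss of Sh2b3 changes transcripts in these leukemias.

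An antibody is built from heavy chains (Igh, chromosome 12) and light chains of the kappa (Igk, chromosome 6) or lambda (Igl, chromosome 16) type, each assembled from variable and joining segments and a constant gene. The constant gene of the heavy chain sets the isotype: B cells begin with IgM (Ighm) and can switch to IgG (such as Ighg3) or IgA (Igha). Resting B cells hold modest amounts of these transcripts, and plasma cells, which secrete antibody, hold very large amounts. T cells assemble their own receptor genes instead, although early T cell precursors can transcribe the mu constant gene from an incompletely assembled heavy chain locus.

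Values are log2 signals as the authors deposited them, and differences are KO minus WT on this scale. The array medians lay between 2.26 and 2.36, so values near 2 are at the low end, where differences carry little information. Sh2b3 itself read 4.25, 4.83 and 4.08 on the WT arrays and 2.29, 2.24 and 2.29 on the KO arrays, a difference of -2.11 (adjusted p = 0.253 by limma). A less intense Sh2b3 probe set lay at the low end in both groups and checks nothing. WT arrays 1 and 2 resembled each other much more than any other pair of arrays did. The difference between them had an SD of 0.247 across 11169 probe sets with a mean above 5, and the 14 remaining pairs had SDs of 0.51 to 0.70. The labels call the samples biological replicates without tying arrays to animals, so the spread that the p-values rest on is that between arrays and may be partly technical. Below, a value without 1 array, or with WT arrays 1 and 2 averaged, is printed beside a result where it ends or makes a call or moves the difference by over 1.5 times. Without WT array 3, limma called 57 of 27005 probe sets (0.211%), 19 higher and 38 lower in KO, against 0 with all arrays.

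Most immunoglobulin probe sets gave almost no signal, and a minority gave signals well above the low end. Of the 55 probe sets of the chain loci, 33 read below 4 on all 6 arrays, and 19 had a mean above 5. These 19, a group chosen after the values were seen, comprise 7 of Ighm, 3 of Igha, 1 of Ighg3, 1 of Ighv14-2 (a heavy chain variable segment), 4 of the kappa locus and 3 of the lambda locus. Probe sets that include a constant gene had a mean above 5 in 15 of 26 cases (57.7%), and those that name variable segments alone in 4 of 25 (16.0%). The kappa locus had the most members, 28, of which 21, most of them annotated to variable segments alone, stayed below 4 on every array.

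**Figure D1:**
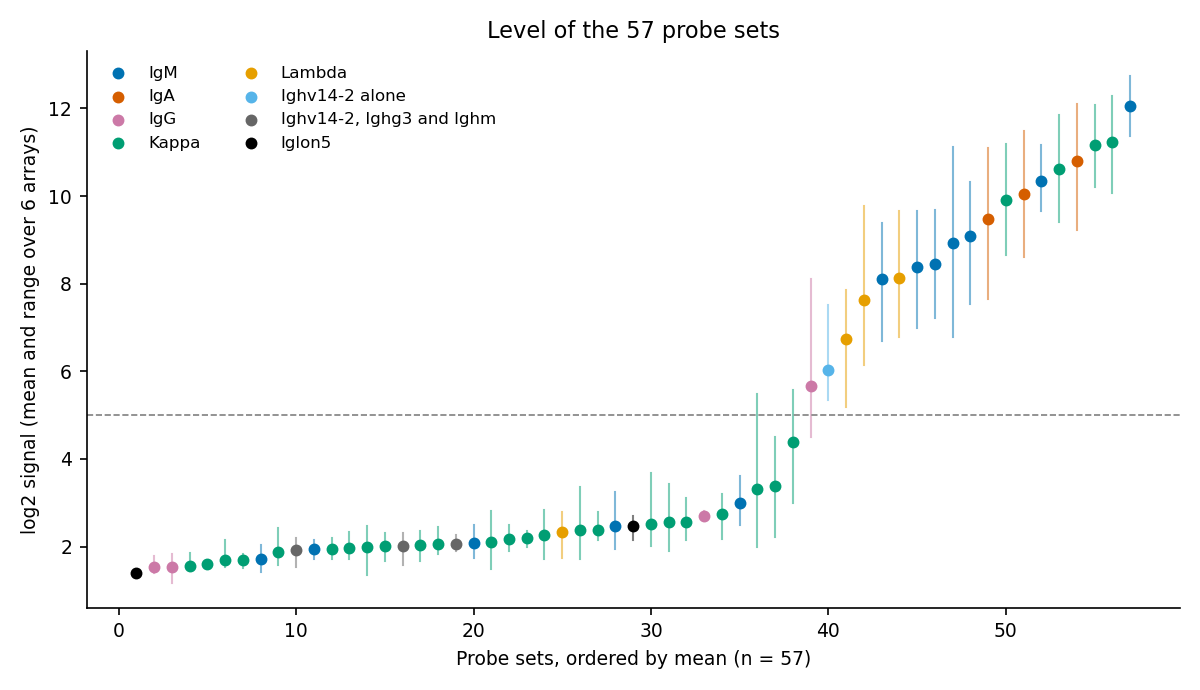
Mean log2 signal (points) and range over the 6 arrays (lines) of the 57 probe sets, ordered by mean and coloured by isotype or light chain; the dashed line marks 5. The 19 probe sets above the line include all 3 of Igha and 7 of the 12 of Ighm, and most kappa probe sets lie near 2.

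The probe sets with signal were largely of the kinds that can bind related transcripts. Of the 19, 13 have an identifier ending in _x_at or _s_at, by which the array design marks probes shared between, or able to bind, several transcripts, against 4529 of 45037 non-control probe sets (10.1%). A further 4 end in _a_at, and 2 have the plain ending. Among the 28 chain probe sets with the plain ending, 2 (7.14%) had a mean above 5. Several probe sets of a gene are therefore not independent readings, and a value cannot be given to a single variable segment. A position on the scale also depends on the probes, so the counts above say which probe sets gave signal and do not rank the transcripts.

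Between the genotypes, the means of the immunoglobulin probe sets with signal all stood higher in KO, but 0 members passed the threshold. With limma, 0 of the 40 members that passed the low value filter had an adjusted p below 0.05, beside 0 of all 27005 probe sets tested (0.0%). The lowest adjusted p over all probe sets was 0.253 and belonged to Ighm probe sets among others. At an unadjusted p under 0.05 there were 11 of 40 members, against 2048 of 27005 in both directions, of which 719 (2.66%) were higher in KO. The KO mean was higher for 47 of the 57 members and for 19 of the 19 with a mean above 5. Over all probe sets with a mean above 5 the share was 37.9%. It was 48.2% after quantile normalization and 57.9% with each array centred on its median. The 19 stayed 19 of 19 under both scalings. These shares are a background for the 19 only. The 57 include 35 probe sets below 4 on every array, and no share over all levels is given for them or for the lists below. The median difference was 0.30 over the 57 members and 1.13 over the 19, with a range of 0.58 to 2.05, beside medians of 0.01 over all non-control probe sets and -0.08 over those with a mean above 5. Over the 19 the median was 1.76 without WT array 3 and between 0.85 and 1.38 without any other single array. A difference above 1 was found in 16 of the 19 and in 0.949% of all probe sets with a mean above 5. In these bulk samples, a change in the number of B or plasma cells and a change in immunoglobulin RNA per cell cannot be told apart.

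Separation of the groups was less common than the higher mean. All 3 KO arrays stood above all 3 WT arrays in 7 of the 40 members tested, against 4.81% of all probe sets tested, and in 5 of the 19 with a mean above 5, against 3.99%. Against WT arrays 1 and 2 alone, all 3 KO arrays stood higher in 18 of the 19, where 11.3% of all probe sets with a mean above 5 did the same. The exception was Ighg3. The gap between these counts lies in WT array 3, which is described for each isotype.

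IgM, the isotype of the first antibody a B cell makes, was represented by 7 Ighm probe sets with signal, which showed 2 patterns. The isotype rests on the annotation alone. Whether all 7 probe sets read the same transcript was not tested. In 4 of them, picked out after the values were seen, the groups did not overlap. The Ighm probe set 1425247_a_at read 8.43, 8.31 and 7.54 on the WT arrays and 10.33, 9.84 and 10.06 on the KO arrays. Every KO array was above every WT array, and WT array 3 was the lowest of all. The means were 8.09 ± 0.48 in WT and 10.08 ± 0.25 in KO (SD, n = 3), a difference of 1.98 with a standard error of 0.251, or 3.95-fold (adjusted p = 0.253 by limma). The Ighm probe set with the smallest p, 1427870_x_at, read 7.94, 7.35 and 7.21 in WT and 9.69, 9.17 and 9.35 in KO. Here too the lowest value was that of WT array 3 and the highest that of KO array 1. Its difference was 1.90, with a standard error of 0.235 and an adjusted p of 0.253 by limma, the third smallest p of the 27005.

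The other Ighm probe sets of this pattern had nearly the same profile. Ighm probe set 1425324_x_at read 7.65, 7.76 and 6.98 in WT and 9.65, 8.97 and 9.29 in KO, a difference of 1.84 (adjusted p = 0.281 by limma). Ighm probe set 1427756_x_at read 7.45, 7.40 and 6.70 in WT and 9.39, 8.67 and 8.97 in KO, a difference of 1.83 (adjusted p = 0.281 by limma). In all 4, WT array 3 gave the lowest value of the 6 arrays and KO array 1 the highest. Their differences ranked between 3 and 9 by p among the 27005 probe sets. Without WT array 3 the adjusted p was between 0.0207 and 0.0721, and 1425247_a_at passed the threshold with a difference of 1.71, as 1 of the 57 probe sets (0.211%) that this setting called. With WT arrays 1 and 2 averaged the 4 differences were 1.95 to 2.12, with adjusted p between 0.607 and 0.944 by limma. Another Ighm probe set, 1427869_at, lay low on the scale, with 2.79, 2.72 and 2.49 in WT and 3.18, 3.23 and 3.60 in KO. Its groups did not overlap either, at a level where differences carry little information.

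The remaining 3 Ighm probe sets with signal went another way on WT array 3. The Ighm probe set with the highest mean, 1427351_s_at, read 11.53, 11.38 and 12.41 in WT and 12.74, 12.54 and 11.77 in KO. WT array 3 stood within the KO range, and the means were 11.77 ± 0.56 and 12.35 ± 0.51 (SD, n = 3), a difference of 0.58 with a standard error of 0.311 (adjusted p = 0.695 by limma). Ighm 1427329_a_at had the same profile, with a difference of 0.67 (adjusted p = 0.683 by limma). Ighm 1425385_a_at varied most between arrays of the 3, with 6.79, 6.85 and 10.10 in WT and 11.13, 10.27 and 8.50 in KO. Its difference of 2.05 had a standard error of 0.936 (adjusted p = 0.662 by limma), and WT array 3 was above KO array 3. Without WT array 3 the differences of 1427351_s_at, 1427329_a_at and 1425385_a_at were 0.90, 1.01 and 3.15. Without KO array 1 those of 1427351_s_at and 1427329_a_at were 0.38 and 0.43, and 1427351_s_at had 0.38 without WT array 2 and 0.87 without KO array 3. The other 5 Ighm probe sets, 1427869_at among them, read between 1.43 and 3.60 on all arrays.

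IgA, the isotype of mucosal secretions, was high on WT array 3 and on all KO arrays and lower on WT arrays 1 and 2. The Igha probe set with the highest mean and smallest p, 1421653_a_at, read 9.41, 9.22 and 12.10 in WT and 11.38, 11.35 and 11.32 in KO. The KO arrays were nearly level, and WT array 3 exceeded them all. The means were 10.24 ± 1.61 and 11.35 ± 0.03 (SD, n = 3), a difference of 1.11 with a standard error of 0.650 (adjusted p = 0.710 by limma). Igha 1425763_x_at read 8.68, 8.60 and 11.48 in WT and 10.55, 10.51 and 10.50 in KO, and Igha 1429381_x_at read 7.96, 7.66 and 11.09 in WT and 10.19, 9.93 and 9.99 in KO. WT array 3 was the highest of all arrays in 3 of 3 Igha probe sets. Without WT array 3, which leaves the near-identical pair as the WT group, all 3 were called by limma, at adjusted p of 0.00646 to 0.00744 and differences of 1.88 to 2.23, 3 of the 57 probe sets (0.211%) called in that setting. With WT arrays 1 and 2 averaged the differences were 0.46 to 0.64, and without WT array 1 or WT array 2 they were 0.44 to 0.69. Over all 14 alternatives their adjusted p ranged from 0.00646 to 0.991.

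IgG was represented by Ighg3 alone, whose 4 probe sets included 1 with signal. Ighg3 1427503_at read 4.79, 4.72 and 5.77 in WT and 8.11, 6.14 and 4.51 in KO. KO array 1 was far above the rest, and KO array 3 was the lowest of all 6. The means were 5.09 ± 0.59 and 6.25 ± 1.80 (SD, n = 3), a difference of 1.16 with a standard error of 0.787 (adjusted p = 0.737 by limma). Without KO array 1 the difference was 0.23, and without KO array 3 it was 2.03. The other 3 Ighg3 probe sets read between 1.18 and 2.81 on every array.

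The variable segment Ighv14-2, which carries no isotype, read 5.34, 5.59 and 5.60 in WT and 6.39, 7.51 and 5.72 in KO at probe set 1455530_at. The KO arrays were above the WT arrays, KO array 3 by little, and the highest value was on KO array 2. The means were 5.51 ± 0.15 and 6.54 ± 0.90 (SD, n = 3), a difference of 1.03 with a standard error of 0.420 (adjusted p = 0.650 by limma), which became 0.55 without KO array 2. Of the 19, this is the 1 probe set where KO array 1 was not the highest of the KO arrays. The 3 heavy chain probe sets annotated to Ighv14-2, Ighg3 and Ighm together lay between 1.53 and 2.31 on all arrays. Of these, 1452538_at was tested and had equal means in the 2 genotypes, with a difference of 0.00 (adjusted p = 1 by limma).

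Kappa light chains, which most mouse antibodies use, were read by 4 probe sets with signal, 3 of them annotated to the constant gene Igkc together with a joining and several variable segments. The one with the highest mean and smallest p, 1452417_x_at, read 10.06, 10.51 and 11.43 in WT and 12.29, 11.67 and 11.43 in KO. WT array 3 and KO array 3 had the same value, and WT arrays 1 and 2 lay below all others. The means were 10.67 ± 0.70 and 11.80 ± 0.44 (SD, n = 3), a difference of 1.13 with a standard error of 0.341, or 2.19-fold (adjusted p = 0.614 by limma). Igkc probe sets 1427660_x_at and 1427455_x_at had differences of 1.04 and 1.30. The variable segment probe set Igkv8-30 1452463_x_at read 8.65, 8.67 and 10.44 in WT and 11.18, 10.41 and 10.10 in KO, a difference of 1.31 (adjusted p = 0.631 by limma), although its ending, _x_at, marks probes that can bind other segments. The order of the 6 arrays was thus alike in all 4, with KO array 1 highest and WT arrays 1 and 2 lowest.

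The other kappa probe sets lay lower. Igk 1452557_a_at read 3.65, 3.0 and 4.62 in WT and 5.58, 4.75 and 4.68 in KO, without overlap and with a difference of 1.25 (adjusted p = 0.631 by limma). Igk 1425738_at read up to 5.49, on KO array 1, and Igkv9-120 1460423_x_at up to 4.51, on WT array 3. The remaining 21 kappa probe sets, among them those of Igkv6-14, Igkv4-72 and Igkv14-111, read between 1.36 and 3.67. Over all 28 kappa probe sets the KO mean was higher in 25, with a median difference of 0.28.

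Lambda light chains, the minor light chain type of mice, showed the same high value on WT array 3. The probe set of the constant gene Iglc1 and the segment Iglv1, 1424931_s_at, read 6.86, 6.79 and 8.97 in WT and 9.67, 7.87 and 8.64 in KO. WT array 3 was above 2 of the 3 KO arrays, and the means were 7.54 ± 1.24 and 8.73 ± 0.90 (SD, n = 3), a difference of 1.19 with a standard error of 0.631 (adjusted p = 0.693 by limma). Iglv1 1430523_s_at read 6.57, 6.14 and 8.70 in WT and 9.77, 7.15 and 7.5 in KO, and Iglv1 1447918_x_at read 5.65, 5.18 and 7.80 in WT and 7.86, 7.32 and 6.63 in KO. In both, the range within each genotype was larger than the difference of 1.0 and 1.06 between them. Single arrays moved all 3 differences. Without WT array 3 they were 1.90 at 1424931_s_at, 1.79 at 1430523_s_at and 1.86 at 1447918_x_at. Without KO array 1, 1424931_s_at had 0.72 and 1430523_s_at 0.19. Without WT array 2, or with WT arrays 1 and 2 averaged, 1430523_s_at had 0.51 and 0.61, and 1447918_x_at 0.55 and 0.66. The remaining lambda probe set, Iglv1 1427292_at, read between 1.74 and 2.80, with a difference of -0.19.

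**Figure D2:**
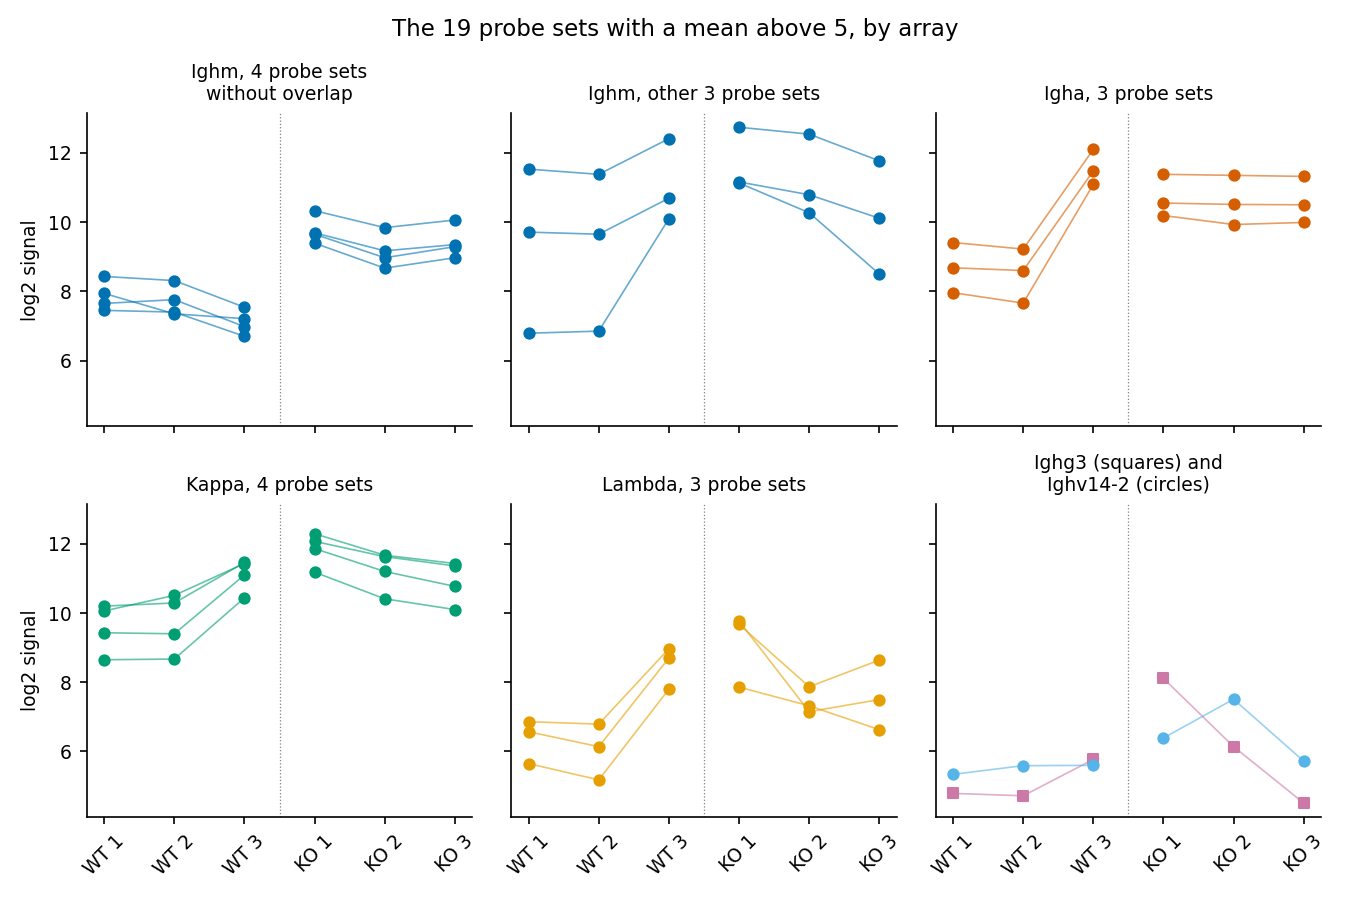
Log2 signal on each array of the 19 probe sets with a mean above 5, in 6 panels by isotype or light chain; each line joins the values of 1 probe set within a genotype. The 4 Ighm probe sets in the panel without overlap read 6.70 to 8.43 in WT and 8.67 to 10.33 in KO. In the Igha panel WT array 3 is above every KO array, and in the kappa and lambda panels it lies at or near their level.

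WT array 3 thus divided the 19 probe sets. The step from the mean of WT arrays 1 and 2 to WT array 3 was between -0.83 and -0.44 in the 4 Ighm probe sets without overlap, with a median of -0.72. In the other 15 it was between 0.14 and 3.28, with a median of 1.78. Across all probe sets with a mean above 5, WT array 3 was above both other WT arrays in 43.8%, and its step exceeded 1 upwards in 3.10%, against 13 of the 19 members. WT array 3 lay within the range of the KO arrays in 11 of these 15 and above the lowest KO array in 13. Set against WT array 3 alone, the KO mean was 2.19 to 2.54 higher in the 4 Ighm probe sets and from -1.05 to 0.94 away in the other 15, with a median of -0.06. For those 15 the KO mean therefore exceeded WT arrays 1 and 2 and not, on balance, WT array 3. The 4 were chosen for their lack of overlap, so their separation is a description.

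**Figure D3:**
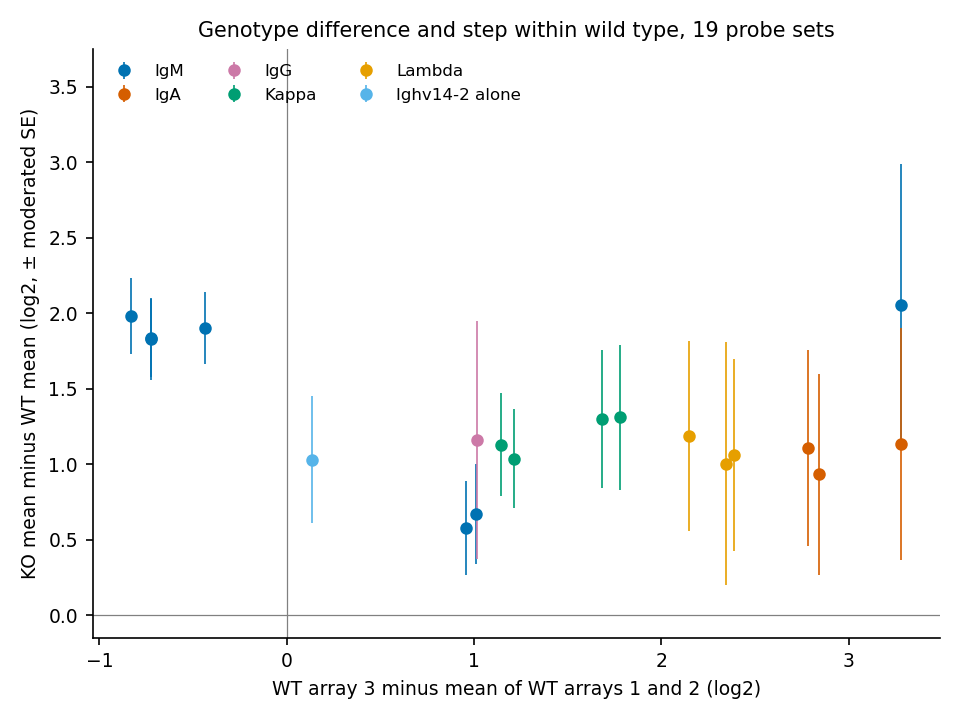
For each of the 19 probe sets with a mean above 5, the KO minus WT difference (vertical, log2, with its moderated standard error) against the step from the mean of WT arrays 1 and 2 to WT array 3 (horizontal, log2). All 19 differences are above 0, at 0.58 to 2.05; the 4 Ighm points at the left have steps of -0.83 to -0.44 and the smallest errors, and the Igha points at the right have steps of 2.79 to 3.28.

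The KO arrays also differed among themselves. KO array 1 was the highest KO array in 18 of the 19 and the highest of all 6 arrays in 15 of 19, against 15.8% of all probe sets with a mean above 5. Relative to the mean of WT arrays 1 and 2, the 19 averaged 2.27 on KO array 1, 1.61 on KO array 2, 1.28 on KO array 3 and 1.33 on WT array 3. By isotype, Igha stood 2.12, 2.01 and 2.02 above that mean on KO arrays 1, 2 and 3, the kappa probe sets 2.20, 1.58 and 1.26, and the lambda probe sets 2.90, 1.25 and 1.39. The 4 Ighm probe sets without overlap stood 1.98, 1.38 and 1.63 above it, and the other 3 Ighm probe sets 2.36, 1.88 and 0.81. Igha was thus nearly level over the KO arrays, while lambda and Ighg3 were led by KO array 1. Between WT arrays 1 and 2 the median absolute difference of the 19 was 0.11, against 0.32 to 2.16 in the other pairs, where over all probe sets with a mean above 5 the values were 0.14 and 0.23 to 0.34.

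Genes that mark B and plasma cells were read on the same arrays, 17 genes for B cells and 15 for plasma cells. Of the 15 plasma cell genes, 9 had a higher KO mean and 6 a lower one, with a median difference of 0.23. Of the 13 that passed the low value filter, 0 passed the threshold by limma. All KO arrays stood above all WT arrays in 6 of the 15, namely Jchain, Mzb1, Xbp1, Sec11c, Derl3 and Tnfrsf17. Over all probe sets tested the share was 4.81%. Derl3 and Tnfrsf17 read below 4 on every array, where differences carry little information, and Tnfrsf17 was not among the probe sets tested. The KO arrays stood below all WT arrays in 2, Txndc5 and Edem1, for which no share over all probe sets is given. Jchain, which joins IgA and IgM into polymers, stood 2.11 higher on WT array 3 than on the mean of WT arrays 1 and 2, and Mzb1, a chaperone of IgM assembly, stood 2.13 higher there. Their KO minus WT differences were 1.68 for Jchain and 2.28 for Mzb1 (adjusted p = 0.61 for both by limma). Mzb1 read 6.87 on WT array 3 and 6.93 on KO array 3. Jchain on WT array 3, at 10.68, was 0.01 below KO array 3, a profile like that of the light chains. The other defining plasma cell genes had no such profile. Tnfrsf17, a survival receptor of plasma cells, read 1.53 to 1.91, and Prdm1, the transcription factor that drives plasma cell formation, read 1.65 to 2.02, both at the low end on every array. Sdc1, the surface proteoglycan CD138, read 9.19, 9.29 and 9.21 in WT and 8.58, 9.61 and 9.12 in KO, with no step on WT array 3 and a difference of -0.13. The chaperones Hspa5 and Hsp90b1, abundant in all secretory cells, differed by -0.03 and 0.07.

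Of the 17 B cell genes measured, 14 had a higher KO mean and 0 passed by limma, with a median difference of 0.31. The KO mean was lower in 3, with Cd37 the lowest at -1.24. All KO arrays stood above all WT arrays in 2 of the 17, Pou2af1 and Cd79a, against 4.81% of all probe sets tested. Of the 17, 8 read below 4 on every array. Cd79a, a signalling partner of the B cell receptor, read 2.32 to 2.52 and Pax5, the transcription factor of B cell identity, 1.91 to 2.63, at the low end on all arrays. Ms4a1, which encodes CD20, read 5.90, 5.17 and 6.21 in WT and 7.01, 7.06 and 5.01 in KO. Its 2 highest values were on KO arrays 1 and 2 and its lowest on KO array 3, which had all 3 Igha probe sets above WT arrays 1 and 2. The genes of the B cell list averaged 0.61, 0.67 and 0.01 above the mean of WT arrays 1 and 2 on KO arrays 1, 2 and 3, and 0.16 on WT array 3; the plasma cell list averaged 0.48, 0.37, 0.15 and 0.18. The coactivator gene Pou2af1, which immunoglobulin promoters use, read 5.03, 5.68 and 6.34 in WT and 8.17, 7.29 and 8.26 in KO, a difference of 2.22 (adjusted p = 0.433 by limma). Its part in the immunoglobulin values was not tested, nor was that of the cell types whose genes are listed.

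**Figure D4:**
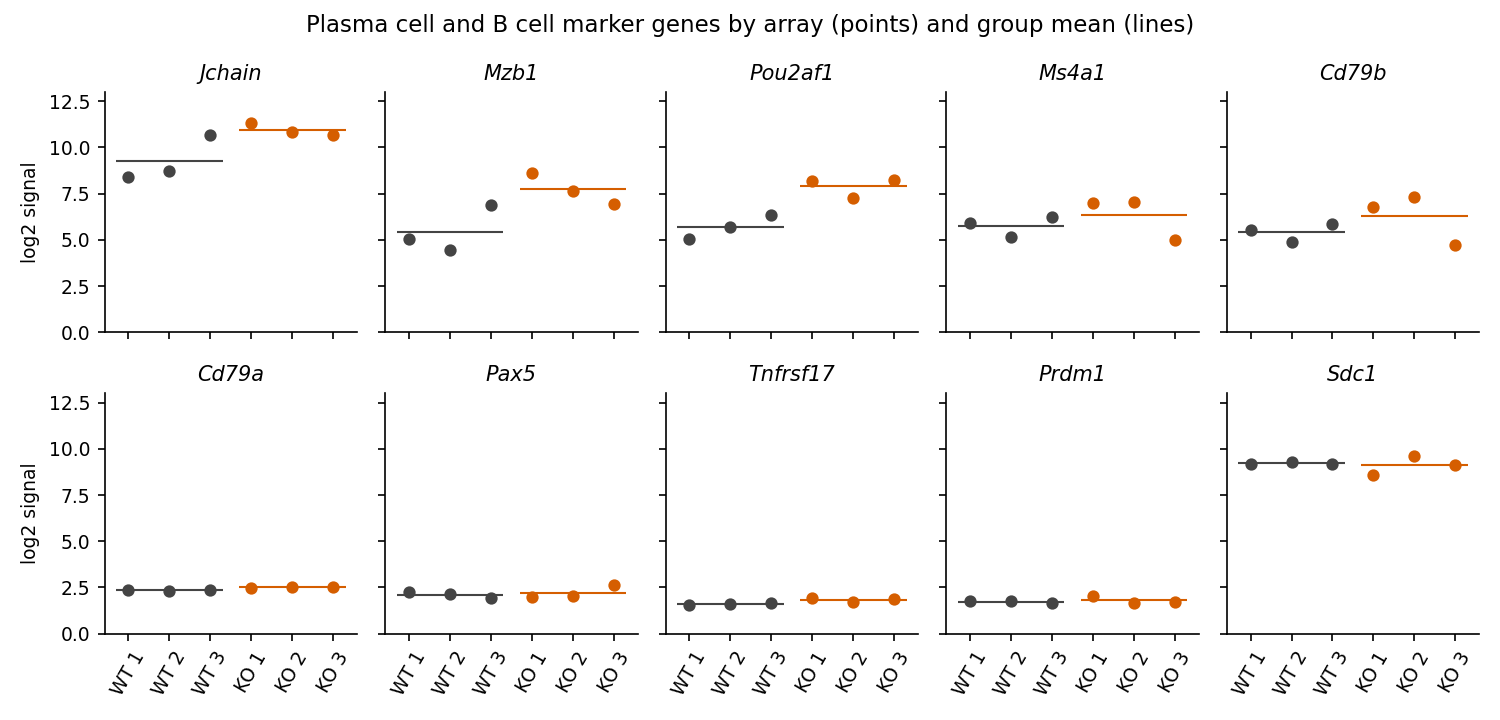
Log2 signal of 10 plasma cell and B cell genes on each array (points) with the group means (lines), WT in grey and KO in orange. Jchain, Mzb1 and Pou2af1 are higher in KO without overlap, as are 4.81% of all probe sets tested. Jchain read 10.68 on WT array 3 and 10.69 on KO array 3. Ms4a1 and Cd79b are low on KO array 3, and Sdc1 lies between 8.58 and 9.61. Cd79a, Pax5, Tnfrsf17 and Prdm1 lie near 2 on every array, and at that level Cd79a and Tnfrsf17 are also higher in KO without overlap. Edem1, Txndc5 and Cd37, which are lower in KO, are not shown.

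Markers of other cells moved with the arrays in other orders. T cell genes were high throughout, with Cd3d between 12.13 and 12.63, and the 12 T cell genes measured averaged -0.44 on WT array 3 and -0.05, -0.15 and -0.71 on the KO arrays relative to WT arrays 1 and 2. Macrophage and granulocyte genes averaged -0.57 on WT array 3 and 0.06, -0.31 and -0.23 on the KO arrays. Genes of dendritic cells and of MHC class II, which B cells also use to present antigen, averaged -0.14 on WT array 3 and 0.67, 0.75 and -0.05 on the KO arrays. None of these 3 lists had, on average, the step of 1.46 to 2.97 that kappa, lambda and Igha probe sets showed on WT array 3. The B cell, B cell precursor and plasma cell lists averaged 0.16, 0.34 and 0.18 on that array. These averages are not alike in make-up. The probe sets were those with a mean above 5, and over all 57 members the median step was 0.39. The B cell, precursor and plasma cell lists were averaged whole, with 8 of 17, 3 of 7 and 4 of 15 genes below 4 on every array. Jchain and Mzb1 had steps of 2.11 and 2.13, and Sdc1, Prdm1 and Tnfrsf17 of -0.03, -0.135 and 0.105. Of the 9 receptors and transporters of antibodies, 8 had a higher KO mean, and 0 of the 7 tested passed by limma. Fcgr3, an IgG receptor of myeloid cells, read 3.92 on WT array 3 against 5.52 to 7.04 on the other arrays.

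**Figure D5:**
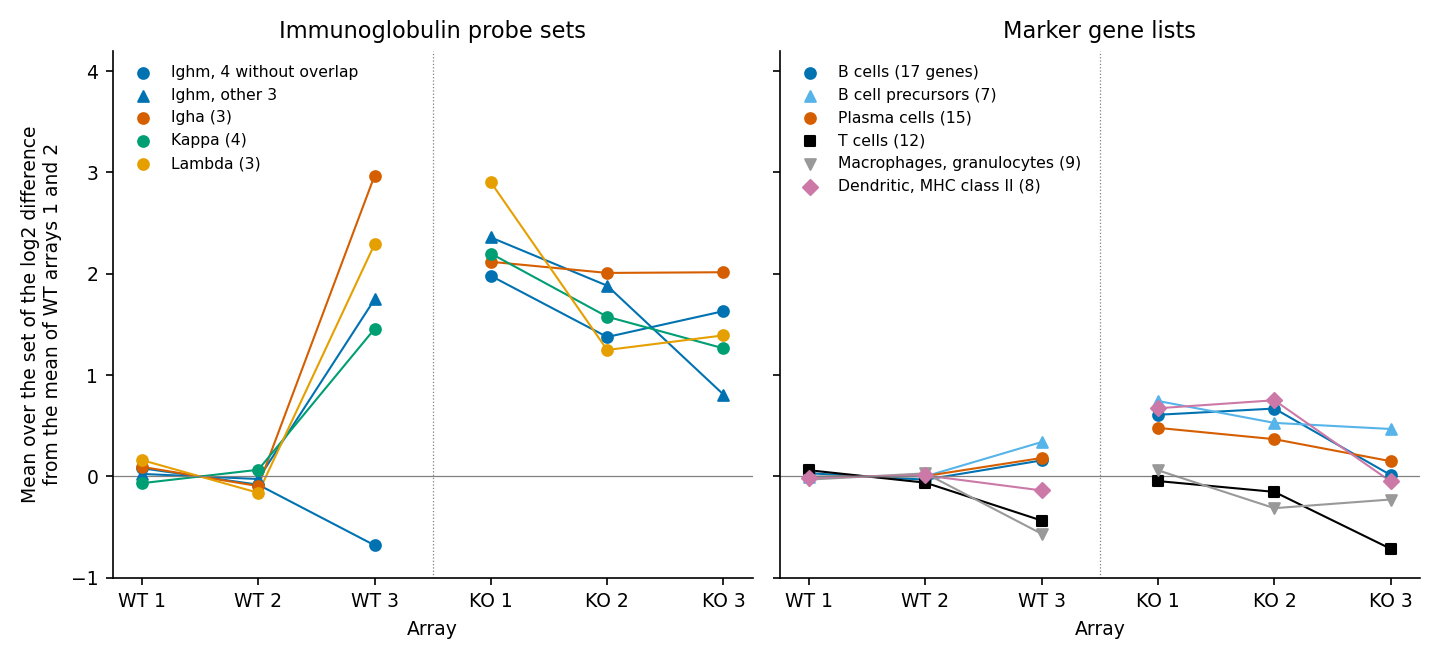
Mean log2 difference from the mean of WT arrays 1 and 2 on each array, for the immunoglobulin probe sets with a mean above 5 (left) and for lists of marker genes (right). Igha, lambda, kappa and 3 Ighm probe sets stand 1.46 to 2.97 higher on WT array 3 and 4 Ighm probe sets stand at -0.68. The marker lists stay between -0.71 and 0.75 on all arrays, and are averaged over all their genes, those at the low end included.

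The machinery of antibody gene assembly was measured as well. The recombination gene Rag1 read 11.70, 11.83 and 11.56 in WT and 12.33, 12.49 and 11.20 in KO. Its step on WT array 3 was downwards, at -0.205 from the mean of WT arrays 1 and 2. Dntt, which adds bases at segment joints, read 10.52, 10.32 and 11.83 in WT and 11.77, 11.72 and 10.99 in KO. WT array 3 was thus its highest array, 1.41 above the mean of WT arrays 1 and 2, a step in the direction of that of the Igha, kappa and lambda probe sets. Both genes are expressed by immature T cells too, and the part of such cells in the immunoglobulin values was not tested. The surrogate light chain genes Vpreb1, Vpreb3 and Igll1, found in B cell precursors, read between 1.82 and 2.94 on all arrays. Of the 6 genes of recombination, mutation and class switch measured, 4 had a higher KO mean and 0 passed by limma. On WT array 3 these 6 averaged 0.43 above the mean of WT arrays 1 and 2.

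The 2 Iglon5 probe sets lay at the low end, with 2.14 to 2.7 at 1458997_at and 1.34 to 1.46 at 1456463_at on chromosome 7. Their differences were -0.05 and -0.06. Without them the median difference over the 55 chain probe sets was 0.30, as with them.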

How the data were processed

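The authors deposited log2 signals for 45101 probe sets on 6 arrays, 3 per group, made with GCRMA (background correction by probe sequence, normalization between arrays, summary per probe set) per the submitters' processing notes. The version and parameters of GCRMA were not given in the sources used here. The base of the logarithm, 2, rests on the range of values. Amplification of small RNA inputs can distort differences.

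Values were used as deposited. Symbols and chromosomes came from the platform annotation and a RefSeq table of GRCm38.p6; no coordinates were used. Control probe sets (64) and those with a mean not above 2.04, the 40th percentile, were left out, and 27005 were tested. KO minus WT was fitted with limma 3.58.1 in R 4.3.3 (intensity trend, two-sided, Benjamini-Hochberg over all tested, threshold 0.05). The fit was also checked on simulated arrays drawn independently of each other. That check cannot show the effect of the likeness of WT arrays 1 and 2. Standard errors are moderated. Tables were made with pandas 2.3.3. Members and lists were chosen with earlier results of these data known. Described in full are, per class, the probe set with the highest mean and that with the smallest p; the grouping by a mean above 5 and the 4 Ighm probe sets were chosen after values were seen. The number of arrays limits the precision. Alternatives were the filter, prior variance, normalization, weights per array, a block on replicate numbers, leaving out each array, WT arrays 1 and 2 averaged, the threshold and the member rule.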

Additional observations from a re-analysis of the deposited data

How the results depend on the processing

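The count of immunoglobulin probe sets past the threshold, 0 with all arrays, ranged from 0 to 4 when arrays were left out in turn, with the 4 (3 of Igha and 1 of Ighm) called without WT array 3; over all probe sets the range was 0 to 57, with 7 called without KO array 1, 1 without KO array 2 and 57 without WT array 3. The other alternatives gave 0 in both counts, an adjusted p under 0.1 and WT arrays 1 and 2 averaged included. The median difference over members, 0.30, ranged from 0.19 to 0.57 over arrays left out and became 1.13 with the filter at the 60th percentile and, chosen after seeing the data, 1.13 over members with a mean above 5, both of which keep fewer low probe sets. Restriction to chain loci, also added after seeing the data, gave 0.30. Centring each array on its median raised all differences by 0.13, and the KO mean was then higher in 55 of 57 members. Iglon5 1458997_at, at -0.05, turned to 0.0867 with arrays centred and ranged from -0.17 to 0.11 over arrays left out; its direction is not determined. With the replicate block the median was 0.30 and 0 members were called. Same-numbered arrays did not deviate together (correlations of -0.04, -4e-04 and -0.06). The deviations were taken from means of 3 arrays, so these correlations depend on each other and cannot exclude a pairing by number. The 19 probe sets with a mean above 5 kept a positive difference in every alternative run. Signals near 2 limit the other probe sets.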
